A study of Mus musculus with 20 samples.

Results

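Microglia sorted from the spinal cord 1 week after a lateral hemisection (HS) were compared with those sorted 72 h after the same lesion, across all 16810 genes of the deposited table. The samples were chosen by their labels alone, and the comparison holds 5 of the 20 samples of the series: 3 at 72 h and 2 at 1 week. All mice, the non-injured (NI) mice included, were CX3CR1+/eGFP heterozygotes, in which eGFP stands in for 1 copy of *Cx3cr1* and marks resident microglia and blood monocytes alike. The study lesioned the thoracic cord of adult male mice aged 12 weeks, took a 1-cm segment around the lesion and sorted eGFP-high cells, a gate from which its authors could not fully exclude infiltrating macrophages. Its methods list more mice than libraries, so a library may hold cells of several mice, and no source used here gives the number of mice per library or a sequencing batch. NI (3 samples), HS at 2 weeks (3 samples) and full transection (FT) of the cord at 72 h and 1 week (3 samples each) are used here as references.

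Microglia are the resident macrophages of the central nervous system. In the healthy cord they divide slowly, and after injury they accumulate around the lesion by local division and are joined there by macrophages from the blood. A dividing cell switches on its genes in waves: those that copy DNA in S phase, which are read by E2F transcription factors, and then those that condense, attach and separate the chromosomes in mitosis, many of which carry a CHR element (cell cycle genes homology region) and CCAAT boxes close to their start. Activated microglia also make chemokines, complement and antigen-presenting proteins, which act on other immune cells.

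Values are in CPM, the reads of a gene divided by the size of its library after edgeR's scaling factor was applied, and have no correction for gene length. The 3 libraries at 72 h held 34099232, 12758166 and 5228935 reads on the genes of the table, and the 2 at 1 week held 6912850 and 7486283 reads. *Cx3cr1* had 1369.8, 2034 and 1619.5 CPM at 72 h and 2011 and 1607 CPM at 1 week, and the microglial genes *P2ry12* and *Tmem119* were found in every library (461, 636 and 513 CPM and 632 and 648 CPM for *Tmem119*). None of the 36 homeostatic microglia markers passed the test, and their summed level was 53239, 65010.3 and 56564 CPM at 72 h and 60372 and 58245 CPM at 1 week. A pair of libraries stood apart from their groups. In HS 1 week replicate 2 the 90 olfactory and vomeronasal receptor genes of the table, which microglia are not known for, summed to 540 CPM, against 195 CPM in replicate 1, 110 to 158 CPM at 72 h and 176 to 254 CPM in NI. The other library with such a sum was FT 1 week replicate 1 (423 CPM). HS 72 h replicate 1, the deepest library, was high for genes of fibroblasts and low for several stress and cytokine genes, as given beside those results. What sets these libraries apart was not tested. The counts of all genes are given without each of them, those after HS under the processing alternatives and those after FT beside the comparison of the injuries.

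A gene was called differentially expressed (DE) when limma, fitted to log2(CPM + 0.5) of all 20 samples, gave an adjusted p (Benjamini-Hochberg, 16810 genes) under 0.05 and the groups differed 2-fold or more. All log2 fold changes are on that scale, which understates the change of low genes. From 72 h to 1 week after HS, 1013 genes (6.03% of those tested) were DE, of which 328 were higher (1.95%) and 685 lower (4.07%) at 1 week. The falls were the larger changes: 144 DE genes were at least 4-fold lower and 55 at least 8-fold lower, whereas 30 were at least 4-fold and 2 at least 8-fold higher. They were also the better covered, since 576 of the 685 lower genes but 84 of the 328 higher genes had a mean of at least 10 CPM at either time. The samples of the 2 times did not overlap for 8018 genes (47.7%): both samples at 1 week lay above all 3 at 72 h for 4169 genes (24.8%) and below them for 3849 (22.9%), against which counts in 1 direction are to be read. With all samples and with each of the 5 samples left out in turn, 307 genes were DE, of which 284 were lower and 23 higher.

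**Figure D1:**
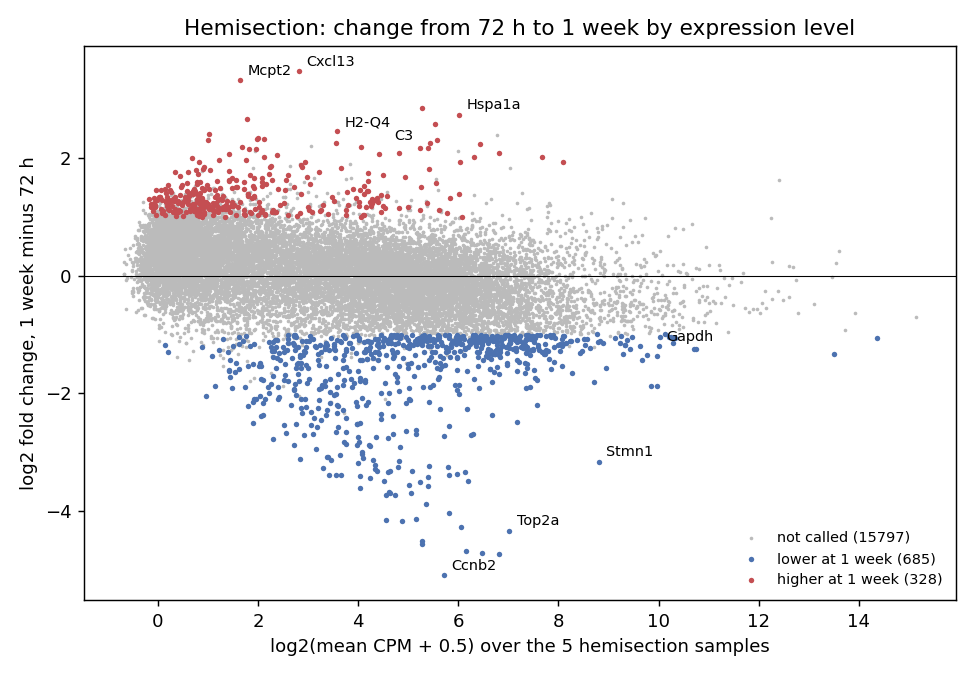
Each point is 1 of 16810 genes, placed by log2 of its mean over the 5 HS samples plus 0.5 CPM (horizontal) and its log2 fold change from 72 h to 1 week (vertical). The 685 lower genes (blue) reach -5.09 (Ccnb2) and extend to the right, among strongly expressed genes, while most of the 328 higher genes (red) lie on the left at low levels and reach 3.48 (Cxcl13).

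The direction of the modest changes depended on the scaling. The columns summed to between 1071940 and 1202186 CPM at 72 h but to 941252 and 900511 CPM at 1 week. When every column was set to the same total, the median change over the table moved by 0.26, from 0.07 to 0.33, and 879 genes were higher and 329 lower, so that 72.8% of the DE genes were higher against 32.4% as deposited. All 328 higher genes and 329 of the 685 lower genes were DE under both scalings. Each list below is read against the median of all genes, 0.07 as deposited.

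Genes of mitosis fell together. Of the 54 genes in the mitosis list, 49 were lower at 1 week and none was higher, with a median log2 fold change of -2.81, against 0.07 for all genes. All samples at 1 week lay below all samples at 72 h for 53 of the 54 (22.9% of all genes). In RNA from a sorted population fewer cells of a kind and less RNA per cell cannot be told apart. *Ube2c*, a ubiquitin-conjugating enzyme that works with the anaphase-promoting complex, had 71.1, 67.5 and 48.4 CPM at 72 h and 2.86 and 1.68 CPM at 1 week (log2 fold change -4.52, SE 0.32, adjusted p = 5.74e-09). *Top2a*, which untangles DNA before the chromosomes part, had 272, 179.7 and 176 CPM at 72 h and 7.897 and 11.8 CPM at 1 week (log2 fold change -4.34, SE 0.25, adjusted p = 4.78e-10). *Plk1*, a kinase that drives entry into and exit from mitosis, had 47.5, 36.4 and 28.5 CPM at 72 h and 1.91 and 1.32 CPM at 1 week (log2 fold change -4.15, SE 0.29, adjusted p = 5.6e-09). *Cdca3*, a trigger of mitotic entry, had 71.5, 52.2 and 46.1 CPM at 72 h and 2.59 and 2.77 CPM at 1 week (log2 fold change -4.14, SE 0.32, adjusted p = 1.82e-08). Every 72 h sample of these 4 genes lay far above both 1 week samples. In NI the levels were low too, for example 9.12, 7.08 and 6.81 CPM for *Top2a* and 1.49, 1.54 and 0.959 CPM for *Plk1*. *Aurkb*, a kinase of the chromosomal passenger complex, fell from 68.3, 49.9 and 38.3 CPM to 4.902 and 2.41 CPM. *Pttg1*, the securin that delays the parting of sister chromatids, was the 1 member with a fold change above 0 (log2 fold change 0.48, SE 0.27, adjusted p = 0.257), and it did not pass the test. The mitosis count was 45 to 50 with 1 of the 5 samples left out and 49 with equal column totals.

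The mitotic cyclins also fell. *Ccnb2*, the gene with the largest fall in the table and a partner of the mitotic kinase, had 141, 52.8 and 62.5 CPM at 72 h and 2.04 and 1.56 CPM at 1 week (log2 fold change -5.09, SE 0.38, adjusted p = 1.43e-08). *Ccnb1*, its close relative, had 149.9, 92.7 and 77.5 CPM at 72 h and 3.27 and 6.98 CPM at 1 week (log2 fold change -4.28, SE 0.35, adjusted p = 4.5e-08). The kinase itself, *Cdk1*, had 142, 121 and 82.2 CPM at 72 h and 17.4 and 16.1 CPM at 1 week (log2 fold change -2.71, SE 0.25, adjusted p = 2.24e-07), which left it at a higher level at 1 week than the 5.06, 6.18 and 5.18 CPM of NI. In all, 20 of 34 cyclins, cyclin-dependent kinases and their regulators were lower and none was higher, with a median of -1.39. Among those 20 were *Cks1b* (-3.24), a small subunit of the kinase complexes, *Cdkn3* (-3.74), a phosphatase that acts on the kinases, and *Ccna2* (-3.04), the cyclin of S phase and early mitosis. *Ccnd1* and *Ccnd3*, cyclins that answer growth signals, and *Cdkn1a* and *Cdkn1b*, inhibitors of the kinases, were not DE. *Ccnd1* had 35.3, 36.8 and 52.9 CPM at 72 h and 29.4 and 26.9 CPM at 1 week (adjusted p = 0.17). *Ccnd3* had 11.9, 10.6 and 14.4 CPM at 72 h and 5.04 and 7.22 CPM at 1 week (adjusted p = 0.0823). For both cyclins all samples at 1 week lay below all samples at 72 h (22.9% of all genes). *Cdkn1a* had 62.6, 122 and 107 CPM at 72 h and 86.5 and 95.03 CPM at 1 week (adjusted p = 0.968). *Cdkn1b* had 37.8, 31.4 and 32.2 CPM at 72 h and 29.5 and 39.7 CPM at 1 week (adjusted p = 0.95).

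Genes that copy DNA fell as well. Of 50 genes in the DNA replication list, 38 were lower and none was higher, with a median of -1.58, and the count was 30 to 38 with 1 sample left out. *Rrm2*, the subunit of ribonucleotide reductase that limits the supply of DNA building blocks, had 289, 152 and 108 CPM at 72 h and 6.3995 and 5.29 CPM at 1 week (log2 fold change -4.74, SE 0.35, adjusted p = 1.43e-08). *Tk1*, the thymidine kinase of dividing cells, had 140.4, 90.8 and 61.7 CPM at 72 h and 7.35 and 9.62 CPM at 1 week (log2 fold change -3.38, SE 0.31, adjusted p = 1.89e-07). *Mcm5*, a subunit of the helicase that opens the double strand, had 166, 95.8 and 92.3 CPM at 72 h and 19.5 and 15.3 CPM at 1 week (log2 fold change -2.69, SE 0.30, adjusted p = 3.15e-06), and *Cdc6*, which loads that helicase, had 26.5, 14.2 and 11.7 CPM at 72 h and 2.18 and 2.17 CPM at 1 week (log2 fold change -2.66, SE 0.34, adjusted p = 2.42e-05). None of these 4 genes overlapped between the times. *Mcm10* (-3.38), which starts the replication fork, and *Uhrf1* (-3.25), which copies DNA methylation, fell too. *Mki67*, the proliferation marker, had 139.5, 83.02 and 108 CPM at 72 h and 10.2 and 10.1 CPM at 1 week and 15.1, 13.9 and 11.8 CPM at 2 weeks (log2 fold change -3.34, SE 0.21, adjusted p = 1.85e-09).

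Several factors that read these genes were lower too. *Foxm1*, the transcription factor of mitotic genes, had 25.3, 14.1 and 19.7 CPM at 72 h and 3.81 and 2.65 CPM at 1 week (log2 fold change -2.42, SE 0.28, adjusted p = 6.46e-06). *E2f1*, an activator, and *E2f8*, a repressor of the same family, had log2 fold changes of -1.41 and -2.57 (adjusted p = 0.0106 and 4.3e-05). All 3 were named after their values were seen, and *Foxm1* and *E2f8* were also DE with each of the 5 samples left out, whereas *E2f1* was not without HS 1 week replicate 1 (adjusted p = 0.134). A further 4 genes among the 10 largest falls lie outside the lists: *2810417H13Rik* (-4.72), which encodes a clamp-binding protein of the replication fork, *Pbk* (-4.68), a mitotic kinase, *Nusap1* (-4.57), which bundles spindle microtubules, and *Fam64a* (-4.17).

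**Figure D2:**
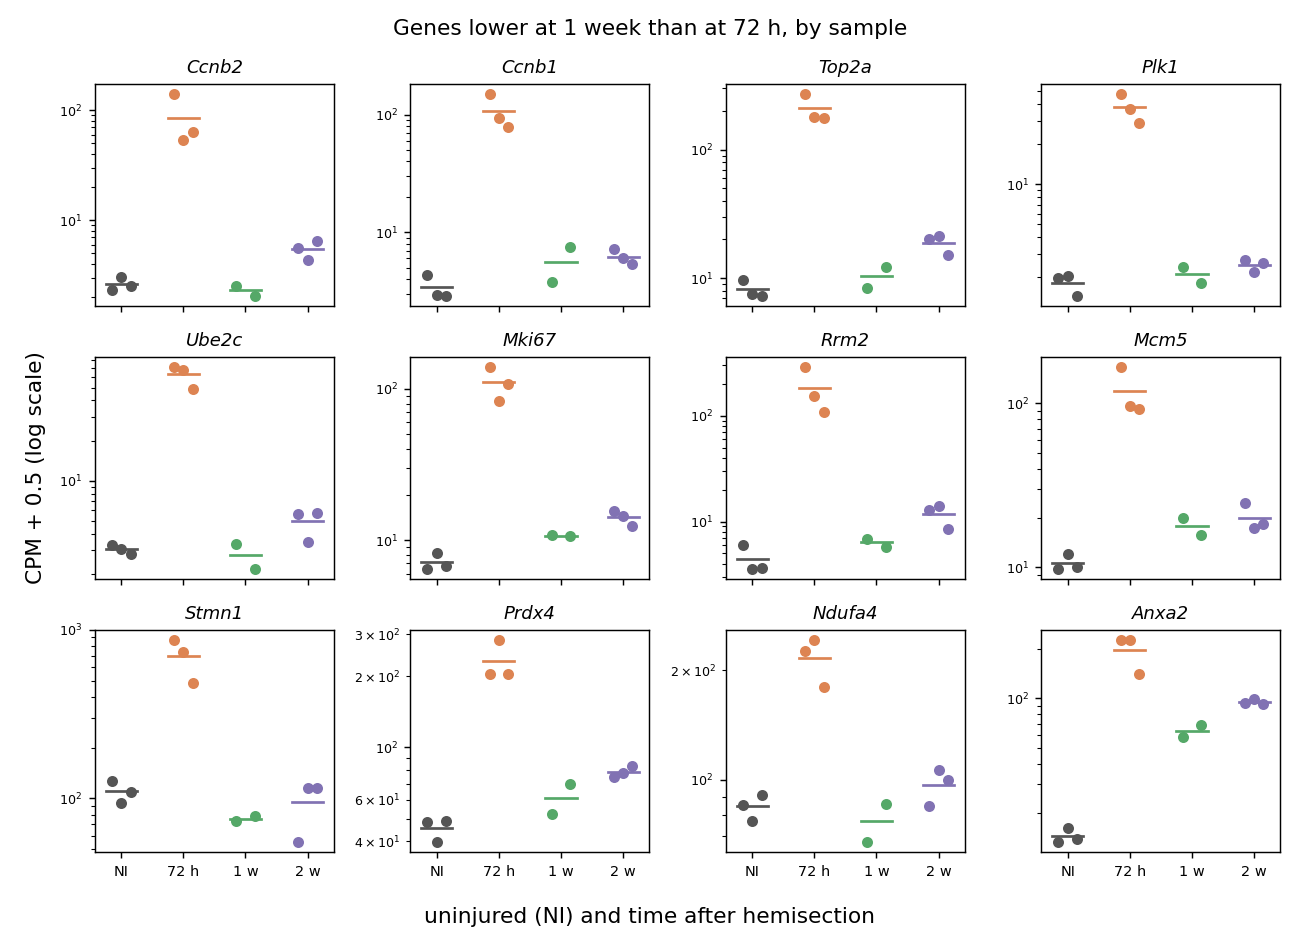
Each dot is 1 sample and each bar the group mean of CPM + 0.5, on log axes, for 12 genes in NI and at 72 h, 1 week (1 w) and 2 weeks (2 w) after HS. All 3 samples at 72 h lie above both samples at 1 week in every panel, by the widest margin for Ccnb2 (52.8 to 141 CPM against 1.56 and 2.04 CPM) and by a narrow one for Ndufa4 and Anxa2.

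Promoters are shown for the genes with the largest changes, since many cell cycle genes share short elements close to their start. Those below run from 250 bases before to 50 after the start that RefSeq gives on GRCm38.p6, 5′ to 3′ on the strand of the gene. Capitals mark matches on either strand to the CHR (TTTGAA), the CCAAT box (CCAAT) and an E2F motif (TTTCGCGC, TTTGGCGC, TTTCCCGC or TTTGCCGC). *Ube2c*, *Top2a*, *Plk1* and *Cdca3* are shown because they were the mitotic genes with the largest falls that hold a CHR or E2F match, and *Mcm5* and *Cdc6* for the same reason among replication genes. *Cxcl13* and *Hspa1b* are shown as the largest rises with a promoter in the table, and in their lines capitals also mark an interferon response motif (GAAANNGAA), an E-box (CACGTG), NF-kB motifs (GGAATTTCC or GGACTTTCC), a CRE (TGACGTCA) and a heat-shock motif (GAANNTTC).
Ube2c (chr2:164769679-164769978, plus strand): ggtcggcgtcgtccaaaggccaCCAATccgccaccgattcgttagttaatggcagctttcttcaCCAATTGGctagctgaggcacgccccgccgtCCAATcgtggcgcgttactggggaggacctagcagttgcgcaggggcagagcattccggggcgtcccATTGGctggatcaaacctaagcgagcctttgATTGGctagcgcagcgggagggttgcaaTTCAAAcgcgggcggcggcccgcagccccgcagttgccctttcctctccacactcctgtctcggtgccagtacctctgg
Top2a (chr11:99024140-99024439, minus strand): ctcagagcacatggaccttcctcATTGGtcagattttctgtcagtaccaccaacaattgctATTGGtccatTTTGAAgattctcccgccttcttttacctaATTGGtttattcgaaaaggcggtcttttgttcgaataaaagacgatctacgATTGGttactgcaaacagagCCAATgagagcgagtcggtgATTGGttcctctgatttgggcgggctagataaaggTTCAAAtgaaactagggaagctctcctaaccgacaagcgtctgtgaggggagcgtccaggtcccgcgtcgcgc
Plk1 (chr7:122159185-122159484, plus strand): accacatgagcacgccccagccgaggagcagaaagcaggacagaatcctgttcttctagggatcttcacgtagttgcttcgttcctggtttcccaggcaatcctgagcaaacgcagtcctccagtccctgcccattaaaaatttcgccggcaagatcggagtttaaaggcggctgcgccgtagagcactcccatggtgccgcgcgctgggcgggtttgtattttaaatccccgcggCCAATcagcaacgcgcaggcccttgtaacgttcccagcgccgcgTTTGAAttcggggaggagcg
Cdca3 (chr6:124829926-124830225, plus strand): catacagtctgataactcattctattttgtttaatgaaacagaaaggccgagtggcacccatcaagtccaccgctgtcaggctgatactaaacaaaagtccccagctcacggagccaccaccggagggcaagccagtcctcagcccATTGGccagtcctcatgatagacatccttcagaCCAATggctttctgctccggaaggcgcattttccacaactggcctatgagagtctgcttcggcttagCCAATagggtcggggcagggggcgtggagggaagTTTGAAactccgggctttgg
Mcm5 (chr8:75109259-75109558, plus strand): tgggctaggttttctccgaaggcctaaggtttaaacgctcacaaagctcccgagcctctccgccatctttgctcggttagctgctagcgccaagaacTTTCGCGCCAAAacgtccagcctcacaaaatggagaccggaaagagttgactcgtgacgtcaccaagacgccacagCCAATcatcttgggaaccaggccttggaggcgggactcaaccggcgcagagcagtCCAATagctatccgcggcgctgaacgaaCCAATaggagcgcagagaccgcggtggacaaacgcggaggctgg
Cdc6 (chr11:98907901-98908200, plus strand): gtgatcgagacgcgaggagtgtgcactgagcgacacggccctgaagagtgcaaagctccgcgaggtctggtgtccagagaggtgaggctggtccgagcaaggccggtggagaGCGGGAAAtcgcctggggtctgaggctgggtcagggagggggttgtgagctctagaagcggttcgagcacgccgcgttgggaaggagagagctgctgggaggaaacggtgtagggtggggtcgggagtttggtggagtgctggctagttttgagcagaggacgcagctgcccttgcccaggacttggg
Cxcl13 (chr5:95956689-95956988, plus strand): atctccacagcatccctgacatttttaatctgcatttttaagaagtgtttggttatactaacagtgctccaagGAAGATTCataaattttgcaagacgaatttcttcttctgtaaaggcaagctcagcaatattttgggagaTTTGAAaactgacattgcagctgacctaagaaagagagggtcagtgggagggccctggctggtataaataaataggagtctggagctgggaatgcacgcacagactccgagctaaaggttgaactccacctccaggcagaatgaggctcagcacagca
Hspa1b (chr17:34959189-34959488, minus strand): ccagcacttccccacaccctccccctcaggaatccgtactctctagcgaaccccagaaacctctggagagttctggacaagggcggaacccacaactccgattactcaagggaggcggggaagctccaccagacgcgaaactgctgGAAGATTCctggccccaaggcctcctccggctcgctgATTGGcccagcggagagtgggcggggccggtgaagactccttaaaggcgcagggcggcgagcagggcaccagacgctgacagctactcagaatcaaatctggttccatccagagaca
The CHR match of *Ube2c* begins 29 bases before the start and that of *Top2a* nearest to it 23 bases before, both on the opposite strand (TTCAAA). In *Plk1* and *Cdca3* it begins 30 bases after the start. In the run of 12 capitals of *Mcm5* a pair of overlapping E2F matches, TTTCGCGC and GCGCCAAA, share 4 bases, and *Cdc6* holds GCGGGAAA 138 bases before its start. In *Ube2c* the adjacent CCAAT and ATTGG share 2 bases. *Cxcl13* holds a heat-shock match 177 bases and a CHR match 108 bases before its start, and *Hspa1b* a heat-shock match 104 bases and a CCAAT match 67 bases before. A heat-shock match stood in 7.95% of all promoters of the RefSeq table.

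A CHR match was found in 33 of the 48 mitosis genes that have a promoter in the RefSeq table (68.8%), against 18.1% of all 27025 promoters. The CCAAT box was found in 34 of the 48 (70.8%, against 37.9%). Of the 40 replication genes with a promoter, 13 held an E2F match (32.5%, against 2.32% of all promoters), 7 a CHR (17.5%) and 24 a CCAAT box (60%). Of the mitosis genes 4 (8.33%) held an E2F match. Of the 685 genes lower at 1 week, 557 had a promoter. A CHR stood in 23.7% of these (18.1% of all promoters), a CCAAT box in 50.3% (37.9%) and an E2F match in 9.34% (2.32%). For the higher genes and for all genes of the deposited table no shares are given, because under 80% of each had a promoter in the RefSeq table. On the forward strand alone 23 of the 48 mitosis genes (47.9%) and 10.1% of all promoters held a CHR. A match describes letters in these windows and does not show that a factor binds there.

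Repair and checkpoint genes were lower in part. Of 32 genes in the DNA damage list 16 were lower and none higher, with a median of -0.99. *Neil3*, a glycosylase that removes damaged bases, had 14.9, 8.76 and 9.02 CPM at 72 h and 0.681 and 1.92 CPM at 1 week (log2 fold change -2.71, SE 0.39, adjusted p = 8.21e-05), and *Ube2t* (-2.54), which serves crosslink repair, fell as well. *Brca1*, which directs repair by recombination, had 16.6, 14.4 and 10.3 CPM at 72 h and 2.86 and 3.85 CPM at 1 week (log2 fold change -1.87, SE 0.30, adjusted p = 0.000275) and 2.26, 3.09 and 2.398 CPM in NI. None of the 22 p53 targets passed the test (median 0.12). Their most strongly expressed member, *Btg2*, had 658, 1132 and 1062 CPM at 72 h and 1528 and 1424 CPM at 1 week (log2 fold change 0.67, SE 0.57, adjusted p = 0.47).

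Many nuclear-encoded subunits of the respiratory chain were lower at 1 week. Of 72 genes in the list for oxidative phosphorylation 38 were lower and none higher. The median was -1.03 and every member lay below 0, from -1.49 to -0.52. *Cox6a2*, a cytochrome oxidase subunit outside this list, was higher (log2 fold change 1.14, SE 0.28, adjusted p = 0.0118). *Ndufa4* had 226, 242 and 180.0 CPM at 72 h and 67.1 and 85.6 CPM at 1 week (log2 fold change -1.49, SE 0.22, adjusted p = 0.000158), and *Cox7a2*, a subunit of cytochrome oxidase, had 159, 168 and 129 CPM at 72 h and 56.5 and 58.8 CPM at 1 week (log2 fold change -1.38, SE 0.24, adjusted p = 0.000906). *Ndufa12* (-1.38) and *Ndufc1* (-1.36), of complex I, fell by about as much. For 65 of the 72 genes all samples at 1 week lay below all samples at 72 h, against 22.9% of all genes. The size of this change sits close to the 2-fold limit, and the number of calls moved with the scaling: 9 were lower with equal column totals and 9 after quantile normalization, and 16 to 50 with 1 sample left out, the fewest without HS 1 week replicate 1. With equal totals the list's median was -0.73, against 0.33 for all genes. In the same way 8 of 31 proteasome genes were lower (1 with equal totals, and 1 to 16 with 1 sample left out, the fewest without HS 1 week replicate 1), among them *Psma1* (-1.46), *Psma5* (-1.18), *Psma2* (-1.15) and *Psmd14* (-1.08). Without HS 1 week replicate 1 the calls of *Psma5*, *Psma2*, *Psmd14* and *Ndufa12* were lost, and without replicate 2 that of *Psmd14*.

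Antioxidant enzymes and parts of the cytoskeleton were lower as well. *Prdx4*, a peroxidase of the secretory pathway, had 204, 284 and 203 CPM at 72 h and 51.9 and 69.3 CPM at 1 week (log2 fold change -1.91, SE 0.20, adjusted p = 1.3e-06). *Txn1* (-1.67), which reduces protein disulfides, *Gpx1* (-1.44) and *Prdx2* (-1.42), which remove peroxides, were lower too, and 7 of the 33 antioxidant genes fell in all (5 with equal totals). *Stmn1*, which takes microtubules apart, had 871, 741 and 481 CPM at 72 h and 72.6 and 77.8 CPM at 1 week (log2 fold change -3.16, SE 0.33, adjusted p = 1.37e-06). The tubulins *Tubb5* (-1.87), *Tuba1b* (-1.81) and *Tubb4b* (-1.80) were among the 13 of 29 cytoskeletal genes that fell (5 to 15 with 1 sample left out, 7 with equal totals). Among 24 glycolytic genes 5 were lower, *Pkm* (-1.25), *Gapdh* (-1.20), *Slc2a6* (-1.25) and *Eno1* (-1.32) among them, and none was with equal totals. Without HS 1 week replicate 2 the calls of *Pkm*, *Slc2a6* and *Eno1* were lost, and without replicate 1 those of *Eno1* and *Tubb4b*. No ribosomal protein gene of 74 was DE, and their median was -0.57 (with equal totals -0.28, against 0.33 for all genes). Both samples at 1 week nevertheless lay below all 3 at 72 h for 65 of the 74 (22.9% of all genes).

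**Figure D3:**
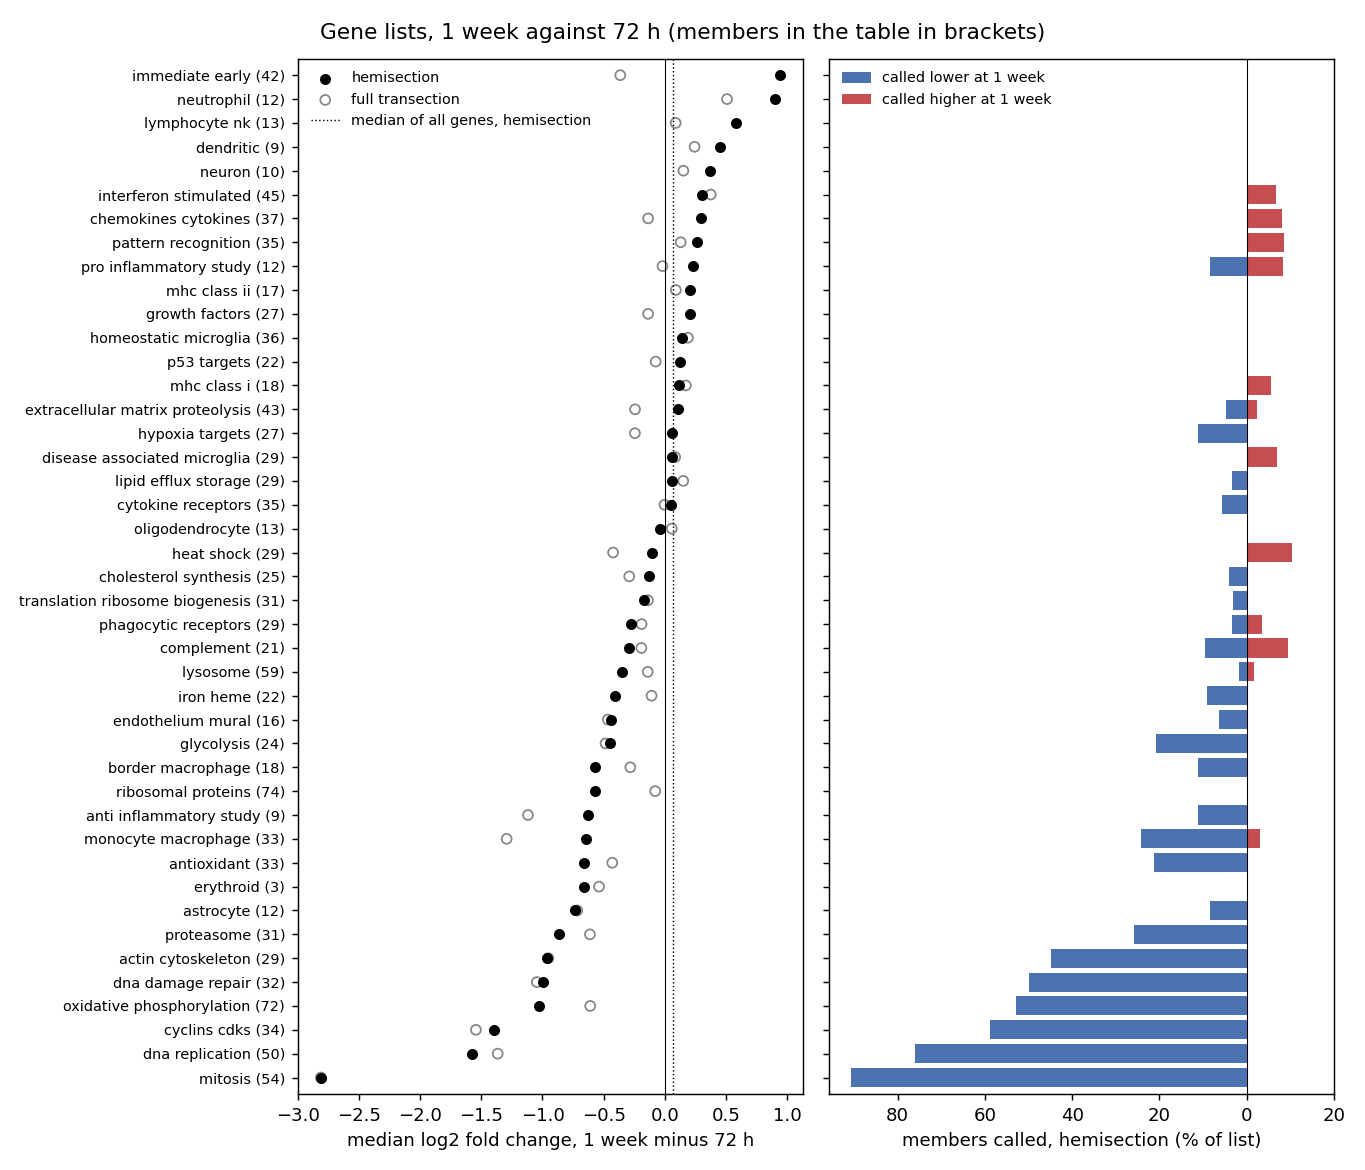
Left, the median log2 fold change from 72 h to 1 week of each gene list after HS (filled) and FT (open), with the median of all genes after HS as a dotted line; right, the percentage of members called lower (blue, to the left) and higher (red, to the right) after HS. Mitosis lies lowest in both injuries (-2.81) with 49 of 54 members lower, and the immediate-early list lies highest after HS (0.94) with no member called.

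Markers of blood-derived and border macrophages were partly lower at 1 week. Of 33 monocyte and macrophage genes 8 were lower and 1 higher (median -0.64). *Cd5l*, a scavenger protein of tissue macrophages, had 32.4, 18.3 and 18.7 CPM at 72 h and 4.08 and 2.89 CPM at 1 week (log2 fold change -2.53, SE 0.38, adjusted p = 0.000141). *Anxa2*, which binds membranes and calcium, had 227, 226 and 140.4 CPM at 72 h and 57.6 and 68.2 CPM at 1 week (log2 fold change -1.62, SE 0.24, adjusted p = 0.000125), and the calcium-binding *S100a4* (-1.82) and *S100a6* (-1.43) were lower too. The 1 member that was higher, the integrin subunit *Itga4*, had 17.2, 19.9 and 26.04 CPM at 72 h and 44.9 and 49.3 CPM at 1 week (log2 fold change 1.16, SE 0.26, adjusted p = 0.00651). The list summed to 4819, 5988 and 4669.9 CPM at 72 h and 4065 and 4338 CPM at 1 week, against 1619, 1416 and 1463 CPM in NI, and no member was at 0 in any of the 5 samples. With 1 sample left out 2 to 6 members were lower (2 without HS 1 week replicate 2, when *S100a4*, *S100a6* and *Itga4* had an adjusted p of 0.21, 0.236 and 0.0834), and 3 with equal totals. *Ccr2*, the receptor that calls monocytes out of the blood, had 34.6, 81.1 and 100.2 CPM at 72 h and 37.7 and 17.1 CPM at 1 week and did not pass the test (log2 fold change -1.35, SE 0.50, adjusted p = 0.0913), and neither did *Emr1* (log2 fold change -0.63, SE 0.36, adjusted p = 0.264). Of 18 border macrophage markers *Cbr2* (log2 fold change -2.39, SE 0.31, adjusted p = 2.46e-05) and *Dab2* (log2 fold change -1.74, SE 0.32, adjusted p = 0.00118) were lower. Their sum was 1882, 1483 and 1564 CPM at 72 h and 1097 and 1008 CPM at 1 week.

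Of 43 genes in the list for matrix and its proteolysis 1 was higher and 2 were lower at 1 week, with a median log2 fold change of 0.11. Another 5 genes of fibroblasts and matrix, named after their values were seen, were highest in HS 72 h replicate 1 among the 5 HS samples. *Sfrp4*, a secreted Wnt antagonist of fibroblasts, had 35.3, 1.22 and 9.43 CPM at 72 h and 0.545 and 0.241 CPM at 1 week (log2 fold change -3.27, SE 0.70, adjusted p = 0.00453), and *Bgn*, *Mgp*, *Igfbp5* and *Cthrc1* were likewise highest in HS 72 h replicate 1, for example 43.6, 5.75 and 6.97 CPM at 72 h and 2.31 and 3.85 CPM at 1 week for *Igfbp5* (adjusted p = 0.0484). *Bgn* had 30.3 CPM in that library and 10.98, 13.7 and 3.03 CPM at 72 h after FT. Without that library *Igfbp5* had an adjusted p of 0.238, and without HS 1 week replicate 2 *Sfrp4* had 0.0713. *Col3a1*, the collagen of the endothelial and mural list, had 33.3, 6.69 and 17.02 CPM at 72 h and 2.86 and 2.77 CPM at 1 week (log2 fold change -2.29, SE 0.52, adjusted p = 0.00759), and without HS 72 h replicate 1 its adjusted p was 0.0541. *Serping1*, the inhibitor of the first complement enzyme, had 10.8, 1.696 and 4.31 CPM at 72 h and 0.545 and 0.842 CPM at 1 week (log2 fold change -2.06, SE 0.57, adjusted p = 0.0262) and an adjusted p of 0.15 without that library. The sum of the 16 endothelial and mural markers was 182, 74.6 and 99.6 CPM at 72 h and 56.5 and 69.4 CPM at 1 week. Whether cells of another kind in that library carried these transcripts was not tested.

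The study's own inflammatory markers split by gene. Its lists were chosen on these samples and are not independent evidence of their direction. Of 9 anti-inflammatory genes 1 was lower, the scavenger receptor *Msr1*, with 139.6, 114 and 85.7 CPM at 72 h and 52.6 and 47.8 CPM at 1 week (log2 fold change -1.14, SE 0.35, adjusted p = 0.042). *Arg1*, which breaks down arginine, had 20.1, 40.5 and 38.1 CPM at 72 h and 8.85 and 5.53 CPM at 1 week and missed the threshold (log2 fold change -2.09, SE 0.68, adjusted p = 0.0546). Its 3 samples at 72 h lay above both at 1 week. The other 7 did not pass either, with log2 fold changes of -1.16 for *Chi3l3*, -0.93 for *Alox15*, -0.63 for *Spp1*, 0.44 for *Il1rn*, 0.30 for *Igf1*, 0.40 for *Il2rg* and -0.16 for *Cxcl3*. Of 12 pro-inflammatory genes *Cxcl9* was higher and *Ifitm2* (log2 fold change -1.32, SE 0.24, adjusted p = 0.00111), an antiviral membrane protein, lower, and the other 10 were not DE, among them *Il1b*, which had 65.9, 275 and 217 CPM at 72 h and 250.1 and 300.1 CPM at 1 week (adjusted p = 0.544). *Gfap* (330.3, 184 and 134 CPM at 72 h and 92.5 and 70.97 CPM at 1 week, log2 fold change -1.31, SE 0.37, adjusted p = 0.0275) and *Vim* (175, 157 and 162 CPM at 72 h and 65.5 and 66.4 CPM at 1 week, log2 fold change -1.31, SE 0.31, adjusted p = 0.0101), the filament genes of astrocytes and of many mobile cells, were lower. The 12 astrocyte markers, of which *Gfap* alone was called, summed to 650.4, 449.8 and 329 CPM at 72 h and 346 and 323 CPM at 1 week. Without HS 1 week replicate 1 the adjusted p was 0.142 for *Msr1*, 0.0842 for *Gfap* and 0.0814 for *Vim*, without replicate 2 it was 0.227, 0.228 and 0.0815, and without HS 72 h replicate 1 *Gfap* had 0.153. *Serpina3n* had 61.96, 20.5 and 14.97 CPM at 72 h and 14.98 and 10.7 CPM at 1 week (log2 fold change -1.05, SE 0.77, adjusted p = 0.394).

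Several chemokine and complement genes were among the 23 rises that were called with any of the 5 samples left out. *Cxcl13*, the chemokine that draws B cells (chromosome 5, 95956951 to 95961068 in GRCm38), had 1.06, 1.41 and 0.410003 CPM at 72 h and 14.3 and 15.8 CPM at 1 week and 17.3, 13.5 and 10.02 CPM at 2 weeks (log2 fold change 3.48, SE 0.35, adjusted p = 8.93e-07), the largest rise in the table. In NI it had 0.238, 0.386 and 0.288 CPM. *Ccl5*, which recruits T cells, had 11.5, 13.2 and 10.9 CPM at 72 h and 47.5 and 56.1 CPM at 1 week and 83.9, 77.8 and 75.1 CPM at 2 weeks (log2 fold change 2.08, SE 0.29, adjusted p = 7.32e-05). *Cxcl9*, an interferon-induced chemokine for T cells, had 0.793, 1.22 and 0.615 CPM at 72 h and 4.63 and 3.73 CPM at 1 week and 10.9, 16.03 and 14.7 CPM at 2 weeks (log2 fold change 1.78, SE 0.31, adjusted p = 0.000696). These 3 were the chemokine and cytokine genes called among 37, and they were called with each sample left out. *C3*, the central complement component, had 13.8, 16.8 and 14.8 CPM at 72 h and 75.6 and 64.6 CPM at 1 week (log2 fold change 2.18, SE 0.23, adjusted p = 1.87e-06), and *Itgax*, which encodes the CD11c subunit of a complement receptor, had 10.4, 28.7 and 27.1 CPM at 72 h and 71.9 and 71.6 CPM at 1 week and 201, 145 and 153 CPM at 2 weeks (log2 fold change 1.81, SE 0.31, adjusted p = 0.000679). Both samples at 1 week lay above all 3 samples at 72 h for each of these 5 genes.

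The other rises called with any sample left out came from several families, and most were named after their values were seen. *H2-Q4*, a nonclassical class I gene, had 2.64, 2.83 and 6.56 CPM at 72 h and 19.3 and 25.98 CPM at 1 week (log2 fold change 2.45, SE 0.36, adjusted p = 0.000127), and its neighbour *H2-Q5*, whose reads may be shared with it, had 1.12, 1.22 and 1.85 CPM at 72 h and 5.58 and 5.65 CPM at 1 week. *Slamf8*, a surface receptor of macrophages, had 21.5, 32.4 and 23.8 CPM at 72 h and 70.7 and 83.5 CPM at 1 week (log2 fold change 1.57, SE 0.23, adjusted p = 0.000126). *Madcam1*, an adhesion molecule for lymphocytes, had 1.02, 1.41 and 0.82001 CPM at 72 h and 5.99 and 5.29 CPM at 1 week (log2 fold change 1.97, SE 0.34, adjusted p = 0.000696). *Nfkbie*, an inhibitor of NF-kB, had 13.8, 12.8 and 17.02 CPM at 72 h and 34.04 and 33.1 CPM at 1 week and 32.2, 38.7 and 39.4 CPM in NI (log2 fold change 1.19, SE 0.21, adjusted p = 0.00105). *Rxrg* (1.45), a nuclear receptor, *Serpinb7* (2.30), *Esyt3* (2.32), *Bckdhb* (1.68), *Tnni3* (1.63), *Whrn* (1.53), *Pde1b* (1.46), *Col27a1* (1.39), *Lime1* (1.28), *Hpn* (1.26), *Fbrsl1* (1.24) and the noncoding *A230056J06Rik* (1.81) complete the 23 together with *Mcpt2*. Some of these were lower at 72 h than in NI, for which no test is given here: *Col27a1* had 119, 159 and 186 CPM in NI and 28.1, 40.05 and 50.02 CPM at 72 h and 102 and 101 CPM at 1 week, and *Whrn* had 38.5, 51.99 and 54.96 CPM in NI and 7.63, 10.8 and 9.64 CPM at 72 h and 30.5 and 25.1 CPM at 1 week.

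Several mast cell genes were near 0 at 72 h and higher at 1 week. *Mcpt2*, a mast cell protease, had 0.165, 0 and 0.410003 CPM at 72 h and 5.45 and 7.097 CPM at 1 week and 7.64, 4.06 and 7.25 CPM at 2 weeks (log2 fold change 3.32, SE 0.58, adjusted p = 0.00084), with 1 of the 3 samples at 72 h at 0. *Tpsb2*, a tryptase, had 0.0661, 1.602 and 0.410003 CPM at 72 h and 8.31 and 4.33 CPM at 1 week (log2 fold change 2.67, SE 0.61, adjusted p = 0.00783), and without HS 1 week replicate 1 its adjusted p was 0.118. *Cpa3*, the carboxypeptidase of mast cells, had 0.03303, 0.565 and 0.205 CPM at 72 h and 3.81 and 3.01 CPM at 1 week (log2 fold change 2.40, SE 0.54, adjusted p = 0.0069), *Mcpt1* had 0.0661, 0.0942 and 0 CPM at 72 h and 0.545 and 1.68 CPM at 1 week (adjusted p = 0.0163) and *Kit*, the receptor on which mast cells depend, had 0.991, 1.04 and 1.03 CPM at 72 h and 2.72 and 2.77 CPM at 1 week (adjusted p = 0.0361). *Cma1* (0.132, 2.54 and 0 CPM at 72 h and 4.08 and 1.08 CPM at 1 week), *Tpsab1* and *Ms4a2* were not DE (adjusted p = 0.138, 0.0867 and 0.103). The calls of *Cpa3* and *Kit* were also lost without HS 1 week replicate 1 (adjusted p = 0.0791 and 0.15) and that of *Mcpt1* without replicate 2 (0.296). Except for *Mcpt2* and *Tpsb2*, this group was assembled after its values were seen, and the related proteases may share reads. Fold changes against levels this near 0 depend on the value added before the log.

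**Figure D4:**
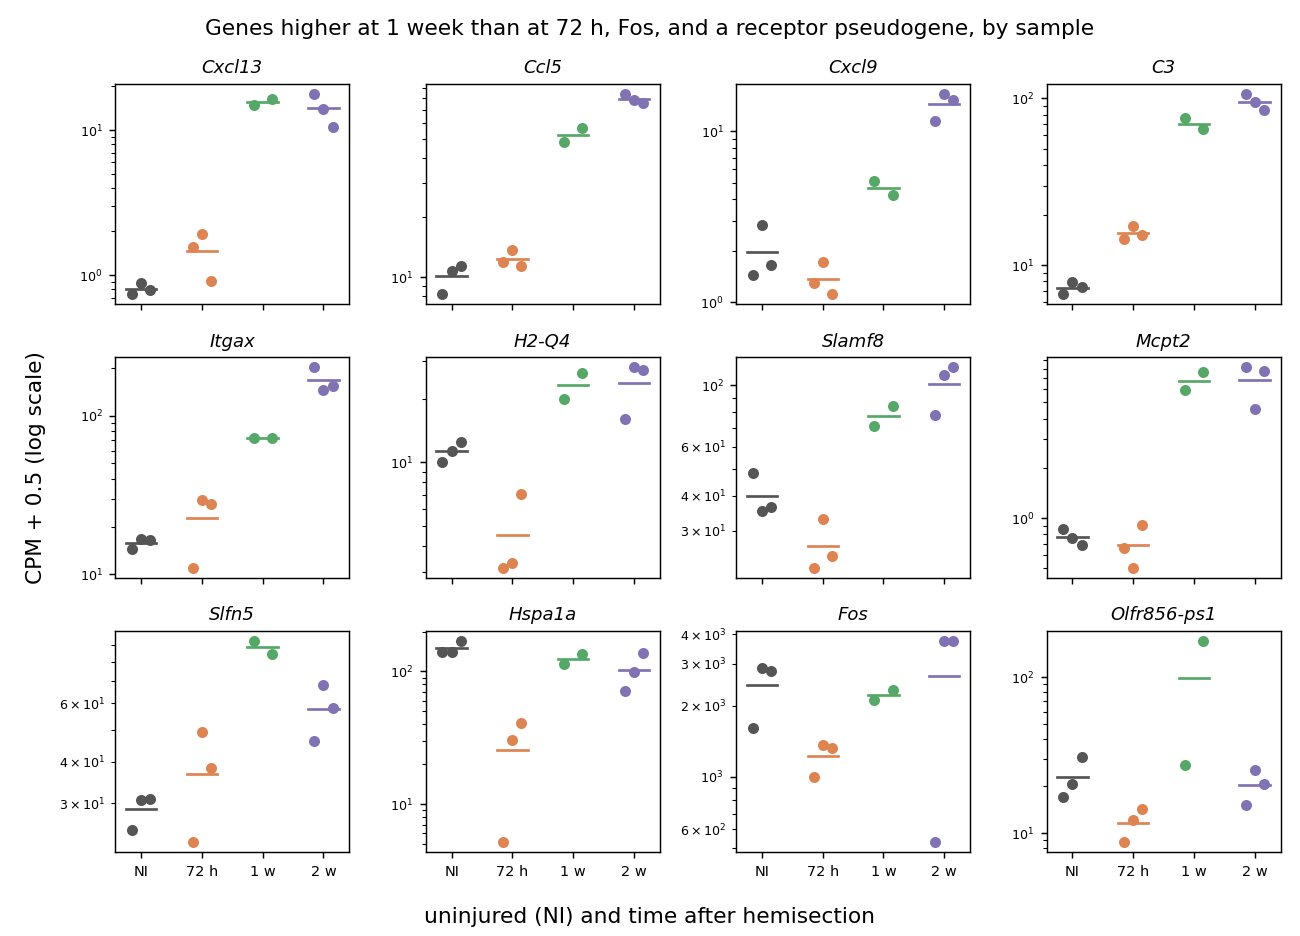
Each dot is 1 sample and each bar the group mean of CPM + 0.5, on log axes, for 12 genes in NI and at 72 h, 1 week (1 w) and 2 weeks (2 w) after HS. Cxcl13, Ccl5, Cxcl9, C3 and Itgax are low in NI and at 72 h and stay high at 2 weeks, Hspa1a is lowest in 1 sample at 72 h (4.69 CPM), and Olfr856-ps1 is high in 1 sample at 1 week only (170 CPM).

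Of the genes in the interferon-stimulated list 6.67% were called, all of them higher, against 1.95% of all genes called higher. Of 45 genes 3 were higher and none lower (median 0.30): *Slfn5* (22.5, 48.6 and 37.9 CPM at 72 h and 91.6 and 83.8 CPM at 1 week, log2 fold change 1.33, SE 0.28, adjusted p = 0.00437), *Oas2* (7.23, 12.1 and 19.9 CPM at 72 h and 33.6 and 28.03 CPM at 1 week, log2 fold change 1.31, SE 0.35, adjusted p = 0.0207) and *Mx1* (16.4, 30.6 and 34.03 CPM at 72 h and 63.6 and 59.5 CPM at 1 week, log2 fold change 1.24, SE 0.30, adjusted p = 0.0122), of which *Oas2* and *Mx1* are antiviral effectors. *Ifitm2*, which the study names as interferon-induced and which was lower (log2 fold change -1.32), is not in this list. All samples at 1 week lay above those at 72 h for 24 of the 45 listed genes (24.8% of all genes). The count was 12 with equal totals and 0 to 4 with 1 sample left out (0 without HS 1 week replicate 1, when *Slfn5*, *Oas2* and *Mx1* had an adjusted p of 0.06, 0.154 and 0.101). *Isg15* had 41.1, 44.005 and 33.01 CPM at 72 h and 49.2 and 47.99 CPM at 1 week and *Irf7* 47.5, 60.7 and 68.9 CPM at 72 h and 134 and 93.2 CPM at 1 week, and neither was DE (adjusted p = 0.389 and 0.0683). In the list of pattern recognition and NF-kB genes 3 of 35 were higher, *Ikbke* (1.26), *Relb* (1.24) and *Nfkbie*. *Nlrc5*, which switches on class I genes, had 12.6, 13.2 and 18.7 CPM at 72 h and 31.9 and 30.9 CPM at 1 week (log2 fold change 1.08, SE 0.22, adjusted p = 0.00363). It was the 1 gene called among the 18 of the class I list, which does not hold *H2-Q4* and *H2-Q5*, called higher above. Without HS 1 week replicate 1 the calls of *Ikbke*, *Relb* and *Nlrc5* were lost, and without replicate 2 those of *Ikbke* and *Relb*. None of 17 class II genes was DE (median 0.21), and *Ctss*, the protease that trims the class II chaperone, had 9542, 14927 and 9585 CPM at 72 h and 11598 and 14184 CPM at 1 week.

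The inducible heat-shock genes *Hspa1a* and *Hspa1b*, chaperones made under stress, were higher at 1 week. *Hspa1a* had 4.69, 29.9 and 40.6 CPM at 72 h and 113 and 135 CPM at 1 week against 140.1, 139 and 169 CPM in NI (log2 fold change 2.73, SE 0.84, adjusted p = 0.0441), and *Hspa1b*, a near-identical copy with which it may share reads, had 1.72, 16.96 and 26.04 CPM at 72 h and 66.3 and 79.4 CPM at 1 week (log2 fold change 2.86, SE 0.88, adjusted p = 0.0431). They and *Hspa1l* (1.35) were the 3 of 29 heat-shock genes called, and the list's median was -0.10. The quasi-likelihood test of edgeR and DESeq2 each called 1 of the 29, and not *Hspa1a* or *Hspa1b*. All samples at 1 week lay above those at 72 h, but the lowest of the latter, HS 72 h replicate 1, was far below the other two, and without it the log2 fold change of *Hspa1a* was 1.81 (adjusted p = 0.221). The calls of *Hspa1a*, *Hspa1b* and *Hspa1l* were also lost without either HS 1 week sample and without HS 72 h replicate 2, with an adjusted p of 0.0556 to 0.223 for *Hspa1a*. The 42 immediate-early genes, which answer stimulation within minutes and also cell handling, had the highest median of all lists, 0.94, and 30 of them were above all 72 h samples in both 1 week samples (24.8% of all genes were), yet none was DE. *Fos* had 995, 1362 and 1328 CPM at 72 h and 2119 and 2332 CPM at 1 week (log2 fold change 0.87, SE 0.83, adjusted p = 0.522), *Egr1* 326, 398 and 504 CPM at 72 h and 910.5 and 983 CPM at 1 week (adjusted p = 0.38) and *Jun* 104, 129 and 208 CPM at 72 h and 359.7 and 284 CPM at 1 week (adjusted p = 0.329). In NI *Fos* had 1604, 2879 and 2806 CPM, and at 2 weeks it had 531, 3731 and 3738 CPM, with 1 sample far below the others.

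Part of the rises rested on HS 1 week replicate 2. *Olfr856-ps1*, a receptor pseudogene, had 8.32, 11.6 and 13.7 CPM at 72 h and 26.96 and 169.7 CPM at 1 week (log2 fold change 2.57, SE 0.56, adjusted p = 0.00542). *Olfr613* had 10.6, 13.7 and 18.04 CPM at 72 h and 33.2 and 139 CPM at 1 week, *Zfp488* 20.1, 32.2 and 34.6 CPM at 72 h and 66.04 and 275 CPM at 1 week and *Grk4* 10.8, 13.7 and 19.1 CPM at 72 h and 32.4 and 132 CPM at 1 week. *Psg28* (0.528, 0.754 and 1.03 CPM at 72 h and 2.04 and 15.04 CPM at 1 week) and *Gm5409* (0.727, 1.04 and 0.82001 CPM at 72 h and 3.404 and 11.4 CPM at 1 week) were likewise highest in replicate 2. Without it the adjusted p was 0.247 for *Olfr856-ps1*, 0.564 for *Psg28* and 0.227 for *Gm5409*. In all, 45 of the 328 higher genes were at least 2-fold higher in replicate 2 than in replicate 1 and 1 was the other way round. Of the 328 higher genes 45 were still DE without replicate 2, 112 without replicate 1 and 109 without HS 72 h replicate 1. For the 685 lower genes these numbers were 435, 364 and 450.

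Other lists held few calls in number, to be read against the 1.95% of all genes called higher and 4.07% called lower. The share called was 19.0% in the complement list, 11.1% of hypoxia targets and 6.90% of disease-associated microglia genes. Among cytokine receptors it was 5.71% and among lysosomal genes 3.39%, against 6.03% of all genes. *Itgax* and *Cox6a2* (log2 fold change 1.14, SE 0.28, adjusted p = 0.0118), a cytochrome oxidase subunit, were the 2 of 29 disease-associated microglia genes called, both higher, and *Clec7a* (335, 555 and 480.3 CPM at 72 h and 547 and 486 CPM at 1 week) and *Lgals3* were not. Among 59 lysosomal genes *Gusb* was lower (-1.20) and *Atp6v0d2*, a proton pump subunit, higher (1.23), and among 29 phagocytic receptors *Olr1* was higher (1.20) and *Msr1* lower. The complement list held 2 falls, *Serping1* and *C1ra* (-1.16), beside its 2 rises. Of 35 cytokine receptors *Tnfrsf26* (-1.22) and *Ccr1* (-1.09) fell, of 27 hypoxia targets *P4ha2* (-2.14), *Car9* (-1.48) and *Anxa2*, of 43 matrix and proteolysis genes *Timp1* (-1.58) and *Tgfbi* (-1.34), beside the rise of *Itga4*, and of 22 iron and heme genes *Steap3* (-1.19) and *Hebp1* (-1.14). Single genes fell in cholesterol synthesis (*Idi1*, -1.27, of 25), lipid efflux and storage (*Apoc2*, -1.09, of 29) and ribosome biogenesis (*Nhp2*, -1.01, of 31). The calls of *Cox6a2*, *Atp6v0d2*, *C1ra*, *Tnfrsf26*, *Ccr1*, *Timp1*, *Tgfbi*, *Steap3* and *Apoc2* were lost without either HS 1 week sample. Those of *Gusb*, *Olr1*, *Car9*, *Hebp1* and *Idi1* were lost without replicate 2 but not without replicate 1. That of *Nhp2* was lost without replicate 1 but not without replicate 2. No gene was called among 27 growth factors, 10 neuronal, 13 oligodendrocyte, 12 neutrophil, 13 lymphocyte, 9 dendritic and 3 erythroid markers. The neutrophil markers, 2 of them at 0 in at least 1 of the 5 samples, summed to 469, 661 and 636 CPM at 72 h and 925 and 799.6 CPM at 1 week, of which *Csf3r*, a cytokine receptor that microglia express too, gave 438, 634 and 607 CPM at 72 h and 857 and 739 CPM at 1 week (653, 771 and 760.5 CPM in NI). The median log2 fold change of the neutrophil list was 0.90, against 0.07 for all genes. Both samples at 1 week lay above all 3 at 72 h for 8 of its 12 members (24.8% of all genes). The oligodendrocyte markers summed to 2255, 895 and 731 and 2100.0 and 1367 CPM. The neuronal sum was 20.3 to 44.1 CPM at 72 h and 34.3 and 26.9 CPM at 1 week.

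To place the change against the uninjured cord, the medians of 3 contrasts with NI are given side by side, although they share the NI samples and the HS samples of the comparison above. The mitosis list had a median log2 fold change from NI of 3.17 at 72 h, 0.27 at 1 week and 0.41 at 2 weeks. For DNA replication these were 1.76, 0.14 and 0.34, and for oxidative phosphorylation 1.22, 0.16 and 0.38. The disease-associated list instead had 1.59, 1.89 and 2.31, and the interferon list 0.99, 1.40 and 1.11. Ribosomal protein genes had 1.29, 0.74 and 0.74.

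The same interval after FT, which shares no sample with the HS comparison, served as a reference. After FT 579 genes (3.44%) were DE between 72 h and 1 week, 139 higher and 440 lower at 1 week. Of the 1013 genes DE after HS, 377 (37.2%) were DE in the same direction after FT, which is 65.1% of the FT calls. Among lower genes the calls shared were 328, which is 47.9% of those after HS and 74.5% of those after FT, and among higher genes 49, which is 14.9% and 35.3%. No gene was called in opposite directions. Without FT 1 week replicate 1, an alternative added after seeing the data, 588 genes were DE after FT, 160 higher and 428 lower, and 347 of them, 43 higher and 304 lower, were among the 1193 DE after HS in that fit, in the same direction. Mitosis genes had a median of -2.81 after FT with 50 of 54 lower, and *Cxcl13* (3.21, adjusted p = 4.01e-07), *C3* (2.51, adjusted p = 4.01e-08) and *Ccl5* (1.94, adjusted p = 3.79e-05) were higher there too.

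No gene passed the test of the difference between the HS change and the FT change (0% called, smallest adjusted p = 0.996 in limma). At an unadjusted p under 0.05 there were 661 genes (3.93%), a smaller share than this threshold gives on average where nothing differs. The tests of edgeR (by quasi-likelihood, then by likelihood ratio) and DESeq2 also called 0, with 669, 713 and 573 genes at an unadjusted p under 0.05. Without FT 1 week replicate 1 no gene was called either, but 2196 (13.1%) had an unadjusted p under 0.05 and the smallest adjusted p was 0.302. The absence of calls does not show that the injuries act alike. Some genes, picked from the 661, had changes of unlike size, which their unadjusted p-values do not establish as a difference. *Hspa1a* had a log2 fold change of 2.73 after HS and 0.04 after FT (unadjusted p of the difference 0.0266). Its FT samples had 36.3, 34.2 and 25.5 CPM at 72 h and 123, 16.0 and 17.1 CPM at 1 week, highest in FT 1 week replicate 1. *Itga4* had 1.16 and -0.02 (0.00275), *Cd5l* -2.53 and -1.08 (0.00906) and *Ifitm1*, an antiviral membrane protein, 0.25 and -2.40 (0.00394). The immediate-early list had a median of -0.36 after FT against 0.94 after HS, with 8 of 42 members at an unadjusted p under 0.05 for the difference, and oxidative phosphorylation had -0.61 against -1.03, with 14 of 72. *Fos*, of the immediate-early list, had 1445, 420 and 314 CPM at 1 week after FT, again highest in FT 1 week replicate 1.

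**Figure D5:**
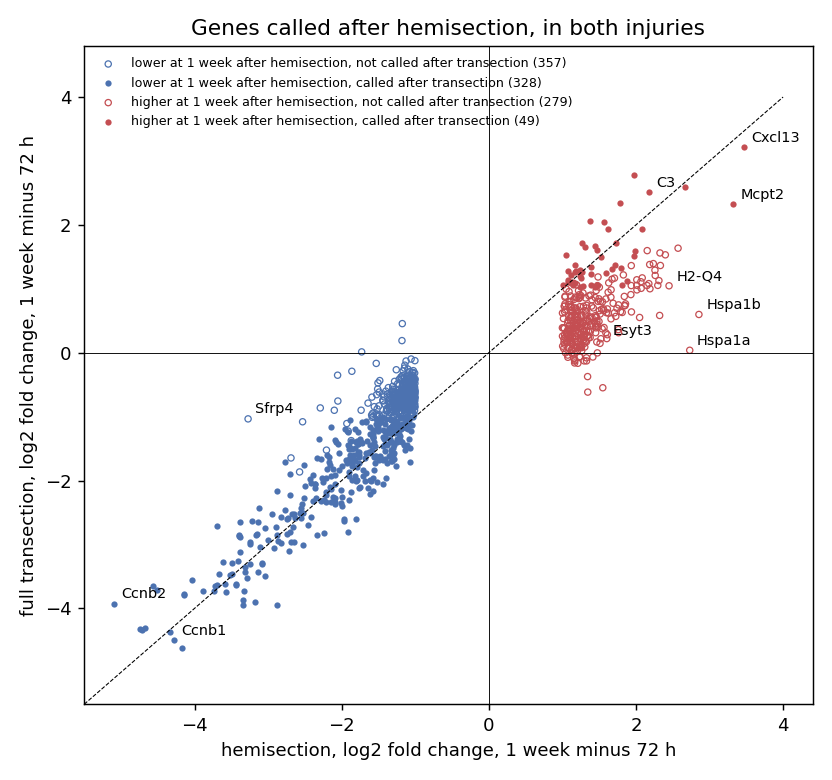
Each point is 1 of the 1013 genes DE after HS, placed by its log2 fold change from 72 h to 1 week after HS (horizontal) and after FT (vertical); filled points were DE after FT too and the dashed line marks equal change. Of the 685 lower genes 559 lie above the line, with a smaller fall after FT, and of the 328 higher genes 307 lie below it, with a smaller change after FT, among them Hspa1a (2.73 after HS and 0.04 after FT). At 1 week after FT the samples of Hspa1a had 123, 16.0 and 17.1 CPM. The genes were chosen by their change after HS, which favours the larger value there.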

How the data were processed

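RNA of the sorted cells was amplified from polyadenylated transcripts and sequenced on an Illumina HiSeq. Reads were aligned by the authors with TopHat2 2.0.9 and counted per gene with HTSeq 0.5.4p3 (build mm10), genes with few reads were removed, and the deposited signal is CPM from edgeR 3.3.6. Whether counting used strand is not given in the sources used here. From the steps between low values, whole reads were recovered for 336162 of 336200 values (within 0.001 of a read). The precision of a value follows from depth, with 1 read worth 0.0330 to 0.205 CPM in the 5 libraries, and nothing says how many mice a sample holds, so p-values measure only the spread between samples.

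CPM values were tested on log2(CPM + 0.5) with limma 3.58.1 (R 4.3.3), 1 mean for each of 7 groups, an intensity trend and Benjamini-Hochberg adjustment over 16810 genes, after a check on simulated data. Alternatives used edgeR 4.0.16 and DESeq2 1.42.0 on the recovered reads, other scalings, filters and values added, thinning, a replicate block and leaving out samples.

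The comparison, the 43 gene lists (1156 of 1171 genes in the table, 3 matched by a synonym) and the tests were chosen with earlier results of these data known. Genes were named as the 10 largest rises and falls with a mean of at least 5 CPM and no overlap, as up to 4 called members of each list (where none was called, the member with the highest mean), and as the study's markers. Others, such as *Aurkb*, *Pttg1*, *Cdk1*, *Ccna2*, the D cyclins and the kinase inhibitors, *Mcm5*, *Cdc6*, *Foxm1*, *E2f1*, *E2f8*, *Isg15*, *Irf7*, *Egr1*, *Jun*, *Olfr613*, *Zfp488* and *Grk4*, were named after their values were seen. Gene positions are from GENCODE vM21 and promoters from RefSeq, both on GRCm38. All 20 columns were mapped to samples. Values of some genes of the DNA damage list are not reported here.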

Additional observations from a re-analysis of the deposited data

How the results depend on the processing

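With 2 samples at 1 week and libraries that differ in depth, single calls depended on single samples, and where a sample at 1 week is left out the lone other is assumed to vary like the rest. Over all 18 alternatives tried for the named genes no called gene changed direction. Of 93 genes named by rule and called, 62 were also called under all 13 alternatives of scaling, filter, test, depth and block, and 49 without each of the 5 samples. With 1 sample left out the number of genes DE ran from 545 (without HS 1 week replicate 2) to 1301 (without HS 72 h replicate 3), that of higher genes from 52 (without HS 1 week replicate 2) to 480 (without FT 1 week replicate 1, which shares in the estimate of the spread), and that of lower genes from 390 (without HS 1 week replicate 1) to 903 (without HS 72 h replicate 3). Higher genes numbered 166 without HS 1 week replicate 1, 115 without HS 72 h replicate 1 and 207 without replicate 2.

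Higher genes numbered 180 with 1 CPM added, 214 after quantile normalization, 879 with equal column totals and 692 by the likelihood ratio test of edgeR, and lower genes 329 with equal totals. With no fold limit 1604 genes were DE, 1137 of them lower. Asking that calls hold with each of the 5 samples left out, an alternative added after seeing the data, left 307, of which 23 were higher and 284 lower. The quasi-likelihood test gave 1233 and DESeq2 1221. The difference between HS and FT gave 0 calls under every alternative, with 2196 genes at an unadjusted p under 0.05 without FT 1 week replicate 1 against 661 with all samples.

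No source used here says whether the replicate numbers mark pairs or batches, and no pairing was assumed. With the numbers as a block, 981 genes were DE and 296 higher. Same-numbered samples at 72 h and 1 week deviated together with a correlation of 0.15 and 0.25 over genes, and the other pairs with -0.25 to 0.10. The 2 samples at 1 week deviate as mirror images, so these correlations cannot decide whether same-numbered samples are paired. At the smallest depth (1 read = 0.205 CPM), when all libraries were thinned to it, 844 genes were DE, 219 of them higher.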
